A study of Homo sapiens with 12 samples.

Results

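Serine can be made from the glycolytic intermediate 3-phosphoglycerate in consecutive steps run by PHGDH, PSAT1 and PSPH. The hydroxymethyltransferases SHMT1 (cytosol) and SHMT2 (mitochondria) split serine into glycine and a folate-bound carbon unit, which MTHFD2 and MTHFD1L process in mitochondria and MTHFD1 in the cytosol. GLDC, the decarboxylase of the glycine cleavage system, feeds carbon units from glycine into the same mitochondrial pool. The carbon units are used for purines, thymidylate and methionine, and proliferating blood cells depend on this supply. These 9 genes were followed in a table of 17518 genes. They were chosen with earlier results of these data known: PHGDH was chosen by its measured levels, which were 14.9-fold lower after knockdown in SKM-1 and steady in MUTZ-1, and the other 8 were taken as genes of its pathway. On GRCh38, PSAT1 lies on chromosome 9 (78297125 to 78330093), PSPH on chromosome 7 (56011064 to 56051444), SHMT1 on chromosome 17 (18327873 to 18363550), SHMT2 on chromosome 12 (57229711 to 57234935), MTHFD1 on chromosome 14 (64388353 to 64460025), MTHFD2 on chromosome 2 (74198615 to 74217565), MTHFD1L on chromosome 6 (150865702 to 151101887) and GLDC on chromosome 9 (6532467 to 6645729). The values of PHGDH are as a description with no test. All 9 genes passed the filter on low counts, which kept 13625 genes.

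RNA had been sequenced from MUTZ-1 and SKM-1, human cell lines labelled as myelodysplastic syndrome cells from marrow (myelodysplastic syndromes are clonal disorders of blood formation). Each line had 3 libraries of cells with a short hairpin RNA (shRNA) against NUDT21, here called shNUDT21, and 3 of cells with a control shRNA, here called control; the labels also give the genotype of the controls as WT. NUDT21 encodes a subunit of a complex that helps choose where transcripts are cleaved and polyadenylated. The column names carry a single hairpin label for all shNUDT21 libraries, so the effect of a second hairpin was not measured, and no label says whether replicates were separate cultures. P-values therefore reflect no more than the scatter among these libraries, and that scatter may be technical. Polyadenylated RNA was selected with a stranded kit.

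The libraries held 15843012 to 18426619 counts. NUDT21 was at 135 to 142 CPM (counts relative to library size, after scaling between libraries by trimmed means of M values, TMM) in MUTZ-1 shNUDT21 libraries and 297 to 301 CPM in MUTZ-1 control libraries, and at 129 to 132 CPM in SKM-1 shNUDT21 libraries and 322 to 343 CPM in SKM-1 control libraries. The lines differed in lineage markers, and in SKM-1 so did the groups. All 5 B-lineage markers checked exceeded 1 CPM in MUTZ-1 (summed level 1065 to 1098 CPM in shNUDT21 and 1351 to 1375 CPM in control libraries). The 7 myelomonocytic markers checked summed to 71.8 to 80.7 CPM in MUTZ-1 shNUDT21 and 82.6 to 92.4 CPM in MUTZ-1 control libraries. Most of this was SPI1 (group means 69.7 CPM in shNUDT21 and 79.9 CPM in control cells). CEBPA was at 6.15 and 6.39 CPM, and MPO had no count in MUTZ-1. CD34 reached at most 0.0199 CPM as a group mean in MUTZ-1. SKM-1 libraries expressed all 7 erythroid markers, with a summed level of 2574 to 2746 CPM in shNUDT21 and 648 to 673 CPM in control libraries. Each of the 7 was lower in every SKM-1 control library than in every shNUDT21 library, at 22.2% to 27.0% of the shNUDT21 level for 6 of them and 38.2% for EPOR. The epithelial markers EPCAM and KRT19 were at 75.4 and 131 CPM in SKM-1 shNUDT21 cells and at 14.1 and 27.7 CPM in SKM-1 controls, while CDH1 was near 0. Of the 7 myelomonocytic markers, summed at 88.1 to 98.3 CPM in SKM-1 shNUDT21 and 26.8 to 28.9 CPM in SKM-1 control libraries, MPO, CEBPA, CSF1R and CD14 stayed under 1 CPM in both groups. SKM-1 controls also had CD33 (21.5%), CD53 (24.5%), KRT19 (21.2%) and the fibroblast marker COL1A2 (25.7%) at a like share of the shNUDT21 level. Not all markers followed that share. PTPRC was at 45.8 CPM in SKM-1 shNUDT21 and 48.7 CPM in SKM-1 control cells. KIT (7.09 and 49.4 CPM) and COL1A1 (1.86 and 9.69 CPM) were lower in shNUDT21 cells, while COL1A2 was higher (10.3 and 2.65 CPM). Whether the SKM-1 libraries hold mixed cells, or cells other than labelled, was not tested. Every SKM-1 difference given below moves with these marker differences. Their part in it was not tested, and a NUDT21 effect and a difference in the cells that made up the SKM-1 groups cannot be told apart. In bulk samples, fewer cells of a type and less RNA per cell cannot be told apart either.

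PHGDH (chromosome 1, positions 119711934 to 119744215, plus strand, GRCh38), which oxidises 3-phosphoglycerate in the committed step of serine synthesis, stood at 23.8, 27.1 and 27.4 CPM in SKM-1 shNUDT21 libraries and at 388, 391 and 390.4 CPM in SKM-1 control libraries. The log2 difference was -3.90 ± 0.036 (SE), which left 6.69% of the control level. In MUTZ-1 it was 499, 496 and 488 CPM in shNUDT21 libraries and 487, 495 and 461 CPM in control libraries, with overlapping groups and a log2 difference of 0.039 ± 0.023. The order of levels was MUTZ-1 shNUDT21, MUTZ-1 control, SKM-1 control and SKM-1 shNUDT21, and the groups next to each other in it overlapped only within MUTZ-1. Among 10893 genes averaging 5 CPM or more, 506 (4.65%) had a more negative SKM-1 difference than PHGDH.

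**Figure D1:**
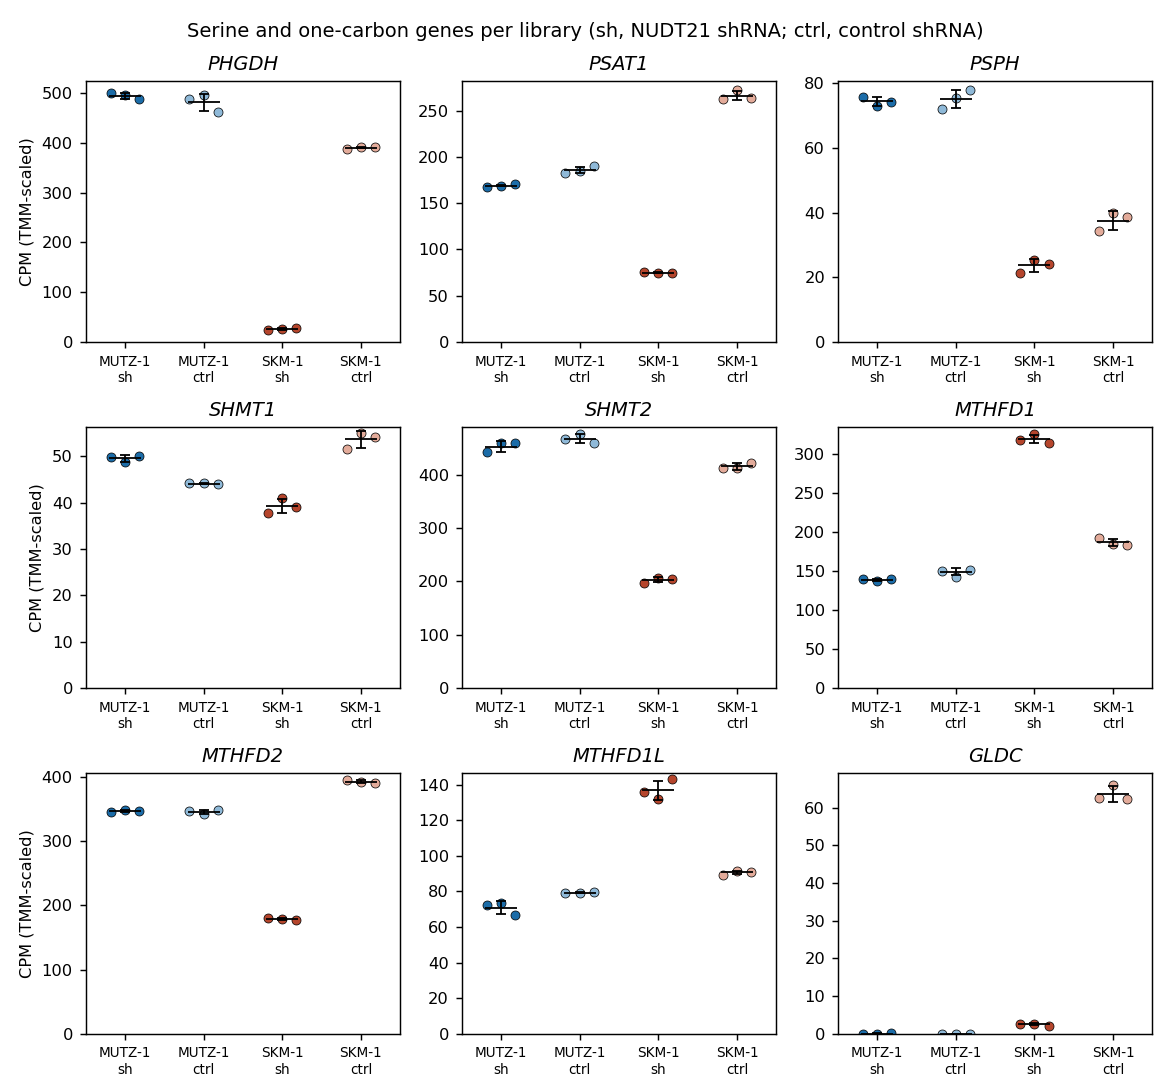
Level of each of the 9 genes in CPM after TMM scaling (vertical axes, linear, each from 0) in the 12 libraries by group; points are libraries, and bars the mean ± SD of 3. PHGDH sits between 23.8 and 27.4 CPM in SKM-1 shNUDT21 libraries and between 388 and 499 CPM in all other libraries, and MTHFD1 and MTHFD1L are highest in SKM-1 shNUDT21 libraries.

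In SKM-1 the other genes of serine synthesis, both hydroxymethyltransferase genes, MTHFD2 and GLDC were lower in shNUDT21 cells, and MTHFD1 and MTHFD1L were higher. In the quasi-likelihood test of edgeR, with p-values adjusted over all genes by the Benjamini-Hochberg method, 6 of the 8 genes beside PHGDH fell and 2 rose. In the same comparison 84.4% of all 13625 genes were called (42.1% higher and 42.3% lower), and the libraries of the groups did not overlap for 84.6% of genes, as for all 9 genes here. The shares are too high for the count of called genes to set this pathway apart, and the sizes and directions are given instead.

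PSAT1, the transaminase that follows PHGDH and uses glutamate as the amino donor, was at 75.4, 74.9 and 74.7 CPM in SKM-1 shNUDT21 libraries and at 263, 272 and 264 CPM in SKM-1 control libraries. It fell by 1.83 ± 0.032 on the log2 scale, which left 28.2% (95% interval 27.0% to 29.4%; adjusted p = 6.14e-126). PSPH, the phosphatase that releases serine, was at 21.5, 25.4 and 24.3 CPM in shNUDT21 and 34.2, 39.8 and 38.6 CPM in control libraries of SKM-1, a fall of 1.58-fold (log2 difference -0.66 ± 0.061, adjusted p = 2.76e-21). The fold difference along the 3 steps was thus 14.9 for PHGDH, 3.55 for PSAT1 and 1.58 for PSPH. RefSeq lists 4 pseudogenes named for PSAT1 and 1 for PSPH, and the treatment of reads with several matches is not given in the sources used here, so their counts are less certain than those of PHGDH, for which none is listed.

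SHMT2, the mitochondrial hydroxymethyltransferase, was at 197, 207 and 204 CPM in SKM-1 shNUDT21 libraries and at 412, 413 and 423 CPM in SKM-1 control libraries (log2 difference -1.04 ± 0.025, 48.7% left, adjusted p = 8.98e-102). The cytosolic SHMT1 was at 37.8, 41.0 and 39.1 CPM in shNUDT21 and 51.7, 55.1 and 54.3 CPM in control libraries (-0.45 ± 0.053, 73.3% left, adjusted p = 1.21e-14). Neither gene's groups overlapped, and the mitochondrial gene had the larger fall. MTHFD2, the mitochondrial dehydrogenase and cyclohydrolase, was at 181, 179 and 178 CPM in shNUDT21 and 396, 392 and 391 CPM in control libraries (-1.13 ± 0.025, 45.7% left, adjusted p = 9.08e-107). RefSeq lists 7 pseudogenes named for MTHFD2, and 1 each for SHMT1, MTHFD1 and GLDC.

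The synthetase genes went the other way. MTHFD1, whose protein carries the synthetase, cyclohydrolase and dehydrogenase activities in the cytosol, was at 319, 326 and 315 CPM in SKM-1 shNUDT21 libraries and at 192, 185 and 184 CPM in SKM-1 control libraries, a rise of 1.71-fold (log2 difference 0.78 ± 0.027, adjusted p = 2.31e-72). MTHFD1L, which releases formate in mitochondria, was at 136, 132 and 143 CPM in shNUDT21 and 89.5, 91.3 and 91.2 CPM in control libraries, a rise of 1.51-fold (0.59 ± 0.037, adjusted p = 5.10e-38). For both genes every shNUDT21 library exceeded every control library. The mitochondrial enzymes therefore did not move as one group, since SHMT2 and MTHFD2 fell and MTHFD1L rose.

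GLDC had the most negative SKM-1 difference of the 9 genes on the count scale, but not on log2(FPKM + 1), where it was -3.49 and PHGDH -3.65. It was at 2.57, 2.69 and 2.17 CPM in SKM-1 shNUDT21 libraries (41, 45 and 35 counts) and at 62.5, 66.0 and 62.4 CPM in SKM-1 control libraries (1113, 1216 and 1086 counts), which left 3.91% (95% interval 3.38% to 4.52%; log2 difference -4.68 ± 0.11, adjusted p = 4.37e-104). In MUTZ-1 it was at the detection limit, with 2 counts over the shNUDT21 libraries and 0 over the control libraries. A count of 0 over the 3 MUTZ-1 control libraries allows up to 3 counts, or 0.0576 CPM, counting error only, so no knockdown fold is given for GLDC in MUTZ-1. AMT and GCSH encode other proteins of the cleavage system. In SKM-1 AMT fell to 1.27 ± 0.124 CPM in shNUDT21 cells, against 9.13 ± 1.07 CPM in controls (SD, n = 3 each; adjusted p = 6.25e-28, edgeR), and GCSH was at 49.1 ± 0.300 and 47.2 ± 1.23 CPM with no call (adjusted p = 0.297, edgeR). DLD, the dihydrolipoamide dehydrogenase shared with other mitochondrial complexes, rose to 261 ± 1.94 CPM, against 129 ± 1.71 CPM (adjusted p = 1.18e-82, edgeR).

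**Figure D2:**
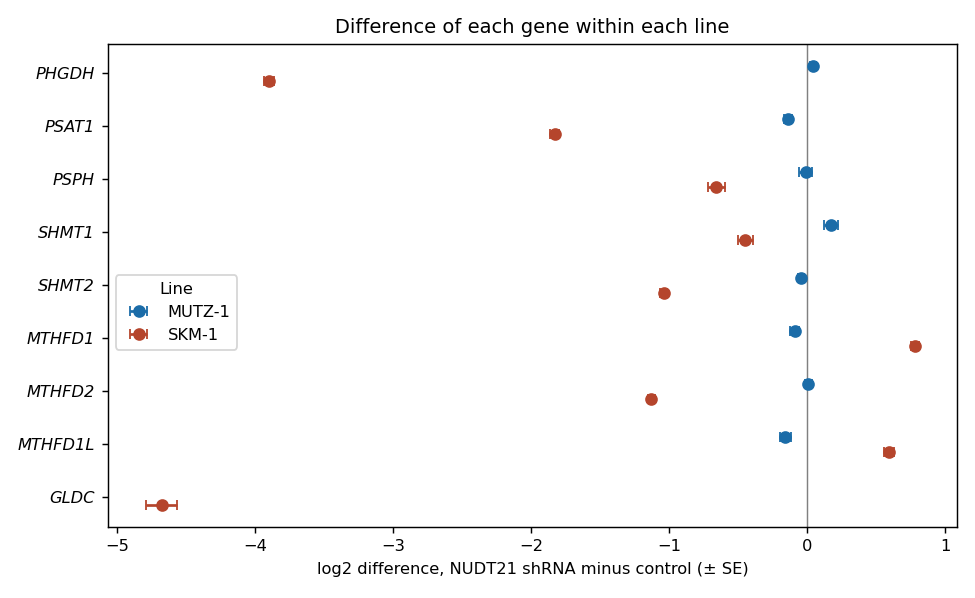
Log2 difference, shNUDT21 minus control, with its SE (horizontal axis) for each gene (rows) in MUTZ-1 and SKM-1; GLDC has no MUTZ-1 point because it had at most 2 counts there. The SKM-1 points run from -4.68 (GLDC) to 0.78 (MTHFD1), and the MUTZ-1 points from -0.16 (MTHFD1L) to 0.17 (SHMT1).

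In MUTZ-1 the same genes differed little. SHMT1 was at 49.9, 48.7 and 50.1 CPM in shNUDT21 libraries and at 44.2, 44.2 and 44.0 CPM in control libraries, a rise of 1.12-fold (log2 difference 0.17 ± 0.053, adjusted p = 0.00457). PSAT1 fell to 90.9% (168, 169 and 170.2 CPM in shNUDT21, 183, 185 and 189.9 CPM in control libraries; adjusted p = 2.63e-05), MTHFD1L to 89.4% (72.4, 73.4 and 66.8 against 79.3, 78.9 and 79.5 CPM; adjusted p = 4.06e-04) and MTHFD1 to 93.8% (140.2, 138 and 139.5 against 149.9, 143 and 152 CPM; adjusted p = 0.00801). SHMT2 (442 to 459 CPM in shNUDT21 and 459 to 476 CPM in control libraries, adjusted p = 0.0869), PSPH (73.0 to 75.9 and 72.2 to 77.8 CPM, adjusted p = 0.857) and MTHFD2 (346 to 348 and 342 to 348 CPM, adjusted p = 0.894) were not called, nor was GLDC. The edgeR test thus called 4 of the 8 genes beside PHGDH, 1 higher and 3 lower, while 49.0% of all genes were called in MUTZ-1 (24.4% higher and 24.6% lower). The groups did not overlap for 5 of the 9 genes and for 53.6% of all genes. The call of MTHFD1 was lost in 12 of 21 alternatives (adjusted p = 0.0504 to 0.341), among them each alternative without 1 MUTZ-1 library other than control replicate 2, and that of MTHFD1L without shNUDT21 replicate 3 (adjusted p = 0.0977, edgeR) and in both fits to log2 FPKM (highest adjusted p = 0.0673, limma). MTHFD2 was called higher in those FPKM fits (log2 difference 0.053 and 0.054, adjusted p = 0.0265 and 0.027, limma).

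The knockdown effect, MUTZ-1 minus SKM-1, was called by edgeR for all 8 genes beside PHGDH, 6 positive and 2 negative, as for 72.0% of all genes (36.4% positive and 35.6% negative). It was positive for PSAT1 (1.69 ± 0.044 on the log2 scale), MTHFD2 (1.14 ± 0.035), SHMT2 (0.99 ± 0.033), PSPH (0.65 ± 0.077) and SHMT1 (0.62 ± 0.075), and negative for MTHFD1 (-0.87 ± 0.041) and MTHFD1L (-0.76 ± 0.055). The highest adjusted p of these 7 was 6.59e-14. GLDC was called too (adjusted p = 4.54e-04, edgeR), but its MUTZ-1 side rests on 2 counts, both in shNUDT21 replicate 3, and no size is given. Without that library 5 genes were positive, and the call of GLDC was the one lost. For PHGDH the difference of 3.94 belongs to what it was chosen for. SHMT1, MTHFD1 and MTHFD1L moved in opposite directions in the lines, with the MUTZ-1 calls of MTHFD1 and MTHFD1L subject to the limits just given.

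Between the control lines, which enter the comparisons above as well, PSPH and SHMT2 were higher in MUTZ-1 and the other 6 genes beside PHGDH were lower (edgeR, all called). Of all genes 90.1% were called, 41.4% higher and 48.8% lower, and the groups did not overlap for 90.0%, as for all 9 genes here. PSPH was at 72.2, 75.4 and 77.8 CPM in MUTZ-1 control libraries and at 34.2, 39.8 and 38.6 CPM in SKM-1 control libraries, a log2 difference of 1.00 ± 0.05 (adjusted p = 6.30e-49). PSAT1 reached 69.9% of the SKM-1 level (186 ± 3.60 CPM in MUTZ-1 and 266 ± 5.07 CPM in SKM-1 controls, SD, n = 3 each; adjusted p = 3.78e-45, edgeR). GLDC, with no count in MUTZ-1 control libraries, was at least 1105-fold lower there than in SKM-1 controls, with 3 counts summed over the 3 MUTZ-1 libraries taken as the floor. SHMT1, MTHFD1, MTHFD2 and MTHFD1L were 1.14 to 1.26 times lower in MUTZ-1 controls, and SHMT2 was 1.12 times higher. The SHMT2 difference was 0.033 on the log2 scale and lost its call with library totals alone in place of TMM (adjusted p = 0.156, edgeR) and in both FPKM fits (highest adjusted p = 0.198, limma), and it is the only gene of the 8 whose call between control lines changed in any of the 21 alternatives.

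Levels per length, in the authors' deposited FPKM (fragments per kilobase of transcript, scaled to library size), let genes be set side by side. In SKM-1 shNUDT21 libraries MTHFD1 (101 ± 1.42 FPKM, SD, n = 3) came before SHMT2 (75.5 ± 1.78), MTHFD2 (40.4 ± 0.240) and PSAT1 (33.9 ± 0.154), while PHGDH (3.55 ± 0.270) and GLDC (0.642 ± 0.0690) were lowest. In SKM-1 control libraries SHMT2 (164 ± 2.10 FPKM) and PSAT1 (127 ± 2.42) led, followed by MTHFD2 (93.6 ± 0.735), MTHFD1 (62.5 ± 1.47) and PHGDH (56.1 ± 0.195). In MUTZ-1, SHMT2 stood at 168 ± 3.69 FPKM in shNUDT21 and 168 ± 2.87 FPKM in control libraries, above all other members, and MTHFD1L (5.29 ± 0.268 and 5.72 ± 0.0239 FPKM) was the lowest but GLDC.

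Across the 4 groups, PSAT1 was highest in SKM-1 controls, followed by MUTZ-1 controls, MUTZ-1 shNUDT21 and SKM-1 shNUDT21 cells, with no overlap between neighbours in that order. SHMT1 ran from SKM-1 controls through MUTZ-1 shNUDT21 and MUTZ-1 controls to SKM-1 shNUDT21 cells. SHMT2 and PSPH were highest in MUTZ-1 controls, then MUTZ-1 shNUDT21, SKM-1 control and SKM-1 shNUDT21 cells, and the MUTZ-1 groups overlapped for PSPH. MTHFD1 and MTHFD1L had the order SKM-1 shNUDT21, SKM-1 control, MUTZ-1 control and MUTZ-1 shNUDT21. MTHFD2 was highest in SKM-1 controls and lowest in SKM-1 shNUDT21 cells, with the overlapping MUTZ-1 groups between. SKM-1 shNUDT21 cells thus had the lowest level for PHGDH, PSAT1, PSPH, SHMT1, SHMT2 and MTHFD2, and the highest for MTHFD1 and MTHFD1L.

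The ratio of a mitochondrial to a cytosolic gene within a library does not depend on library scaling. MTHFD2/MTHFD1 was 0.404, 0.392 and 0.402 in SKM-1 shNUDT21 libraries and 1.47, 1.51 and 1.51 in SKM-1 control libraries. In MUTZ-1 it was 1.76, 1.80 and 1.77 in shNUDT21 and 1.65, 1.70 and 1.63 in control libraries. The ratio was thus lower in SKM-1 shNUDT21 libraries, and slightly higher in those of MUTZ-1, than in the matching controls, with no overlap in either line. SHMT2/SHMT1 was 5.06 ± 0.0953 in SKM-1 shNUDT21 and 7.62 ± 0.232 in SKM-1 control libraries, and 8.99 ± 0.283 in MUTZ-1 shNUDT21 and 10.4 ± 0.160 in MUTZ-1 control libraries (SD, n = 3 each). It was lower in every shNUDT21 library than in every control library of its line. MTHFD1L/MTHFD1 was 0.102 ± 0.00557 and 0.115 ± 0.00371 in SKM-1 and 0.121 ± 0.00646 and 0.127 ± 0.00347 in MUTZ-1, shNUDT21 before control, and overlapped within MUTZ-1. These ratios are values per library with no test.

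**Figure D3:**
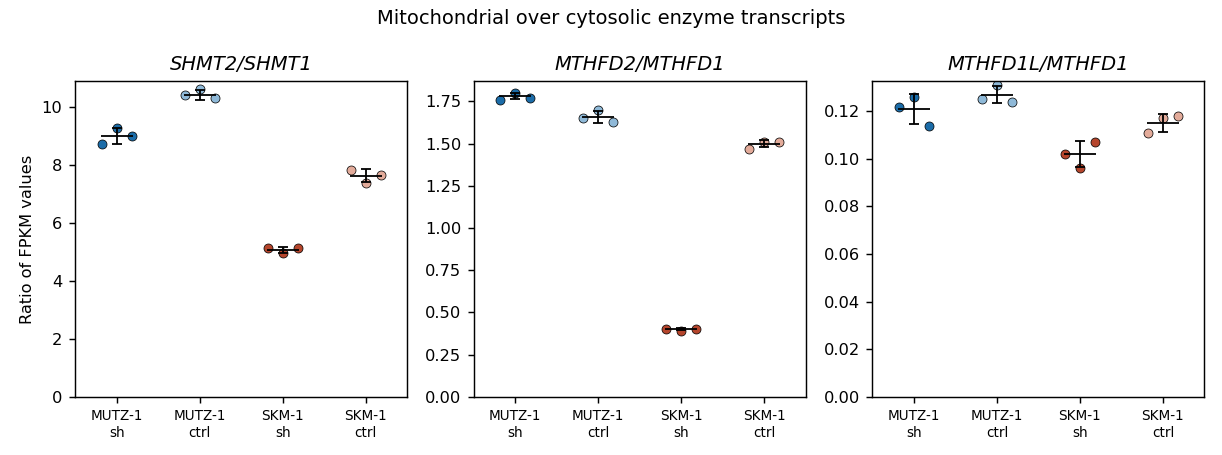
Ratio of FPKM values of a mitochondrial over a cytosolic enzyme gene (vertical axes, linear, from 0) in each library by group; points are libraries, and bars the mean ± SD of 3. MTHFD2/MTHFD1 is 0.392 to 0.404 in SKM-1 shNUDT21 libraries and 1.47 or more in all others.

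Parts of the start regions are shown for PHGDH, PSAT1 and MTHFD2, which fell in SKM-1, and for MTHFD1 and MTHFD1L, which rose. RefSeq windows from 250 bases before to 50 after a transcript start (GRCh38.p14) were matched for PHGDH, PSAT1, SHMT1, MTHFD1, MTHFD2, MTHFD1L and GLDC. Capitals mark CCAAT (or ATTGG, its other strand), the letters bound by NF-Y, and CACGTG, the E-box bound by MYC and MAX and its relatives. The first 4 sequences are the 150 bases before the start, and the last is the 30 bases around the CACGTG of MTHFD1L, which lies at different distances from the several starts RefSeq gives for that gene. These parts leave out other matches in the windows. MTHFD1 also had CCAAT at -216 and ATTGG at 35, MTHFD2 CCAAT at -184, and MTHFD1L CCAAT at -193 from 1 of its starts. CCAAT was thus present in genes that fell and in genes that rose.
PHGDH, chr1:119711784-119711933, plus strand: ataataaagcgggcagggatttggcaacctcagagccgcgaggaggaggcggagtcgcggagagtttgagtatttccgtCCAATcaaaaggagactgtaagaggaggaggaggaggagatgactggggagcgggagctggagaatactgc
PSAT1, chr9:78296975-78297124, plus strand: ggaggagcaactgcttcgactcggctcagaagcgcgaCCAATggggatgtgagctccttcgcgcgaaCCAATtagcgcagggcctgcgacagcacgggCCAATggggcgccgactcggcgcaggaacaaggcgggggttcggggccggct
MTHFD2, chr2:74198465-74198614, plus strand: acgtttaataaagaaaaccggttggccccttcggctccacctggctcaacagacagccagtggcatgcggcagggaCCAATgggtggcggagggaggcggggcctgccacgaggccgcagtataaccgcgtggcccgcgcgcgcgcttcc
MTHFD1, chr14:64388203-64388352, plus strand: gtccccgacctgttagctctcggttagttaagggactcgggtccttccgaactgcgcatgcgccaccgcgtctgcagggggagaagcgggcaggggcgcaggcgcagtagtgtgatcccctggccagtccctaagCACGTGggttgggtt
MTHFD1L, chr6:150866320-150866349, plus strand: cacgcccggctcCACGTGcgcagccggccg

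CCAAT on either strand was found in the windows of all 7 matched genes, and in 43.6% of the 10975 tested genes with a window. These letters were chosen after the windows were seen. CACGTG was found in 2 of the 7, MTHFD1 and MTHFD1L, and in 12.5% of tested genes with a window. TGATGNAA, the core of the site bound by ATF4 with C/EBP partners, was found on either strand in 1 of the 7, MTHFD1L, and in 2.98% of tested genes with a window. No matches of different motifs overlapped in these windows, and a match describes the letters only, in genes whose SKM-1 directions were known. PSPH and SHMT2 were not analysed here for these letters.

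The genes next to PHGDH on chromosome 1 were lower in SKM-1 shNUDT21 cells as well. Of the 5 nearest tested genes on each side, 9 fell and 0 rose (edgeR), beside 42.3% of all genes lower and 42.1% higher. Their median log2 difference was -1.43, against 0.15 over the 1372 tested genes of the chromosome. Only 7 of these 10 neighbours averaged at least 5 CPM. NOTCH2, a receptor gene, was at 17.9 ± 2.50 CPM in SKM-1 shNUDT21 and 225 ± 6.04 CPM in SKM-1 control libraries (log2 difference -3.64 ± 0.046), while in MUTZ-1 it was at 139.9 ± 4.39 and 91.7 ± 2.37 CPM (0.61 ± 0.036; SD, n = 3 each). The neighbouring SPAG17 was at 1.85 and 29.5 CPM, and HAO2 at 0.0598 and 0.971 CPM in SKM-1 shNUDT21 and control libraries, and TBX15 was not called (adjusted p = 0.0747, edgeR). WARS2, ZNF697, SEC22B, NBPF8 and NBPF26, further neighbours, had log2 differences between -1.50 and -0.38. NBPF8 and NBPF26 belong to a family of near-identical copies, and their counts are uncertain. Around the other 8 genes, the 10 nearest tested genes had medians between -1.16 (SHMT2) and 0.095 (PSPH). From 3 (PSPH) to 8 (MTHFD2) of these 10 fell in SKM-1. Medians over whole chromosomes ran from -1.09 (chromosome 13) to 0.47 (chromosome 21) in SKM-1 and from -0.02 to 0.031 in MUTZ-1. Chromosome 9, which holds PSAT1 and GLDC, had a median of -0.20 in SKM-1, and chromosomes 14 and 6, which hold MTHFD1 and MTHFD1L, medians of -0.24 and 0.35. The part of such chromosome-wide differences in the values of the 9 genes was not tested.

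Genes with a pattern like that of PHGDH were ranked by the root mean square difference over the 4 group means of log2(CPM + 1), each gene centred on its own mean, among 11788 genes with at least 5 CPM in 1 group. The nearest were CARMIL1 (difference 0.0211), SNTB1 (0.0793), LAMC1 (0.0913), SLC1A1 (0.0919) and PPP1R13B (0.0930). Adding 1 CPM understates the changes of low genes. CARMIL1, SNTB1 and SLC1A1, at 1.11, 1.15 and 0.598 CPM in SKM-1 shNUDT21 cells, are thus closer to PHGDH on this scale than by fold. CARMIL1, which encodes a regulator of actin capping, was at 1.11 ± 0.0920 CPM in SKM-1 shNUDT21 and 29.7 ± 0.285 CPM in SKM-1 control libraries, and at 39.1 ± 2.19 and 36.9 ± 0.759 CPM in MUTZ-1. LAMC1, a laminin chain gene, was at 14.5 ± 0.428 and 193 ± 2.64 CPM in SKM-1 and 279 ± 7.61 and 243 ± 4.53 CPM in MUTZ-1 (shNUDT21 before control; SD, n = 3 each). The closest of the pathway genes, PSAT1, PSPH and SHMT2, ranked 703, 764 and 865, and GLDC, which was at the detection limit in MUTZ-1, ranked 10839.

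Further genes around the pathway were read from 11 lists with 103 genes, of which 102 were in the table and 96 tested. In SKM-1, 49 of the 96 fell and 38 rose (edgeR), beside 42.3% of all genes lower and 42.1% higher. In MUTZ-1, 42 fell and 21 rose, beside 24.6% of all genes lower and 24.4% higher. These shares of all genes are the background for each list count below. Medians below are log2 differences over list genes with at least 1 CPM in 1 of the groups, beside 0.019 in SKM-1 and 0.0038 in MUTZ-1 over all such genes.

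Most genes of purine synthesis, which consumes carbon units, rose in SKM-1, and folate carriers were split. Of 12 genes of purine synthesis, 9 rose and 3 fell (median 0.65), beside 42.1% of all genes higher and 42.3% lower. GART, which takes up formyl groups from folate, was at 564 ± 6.66 CPM in SKM-1 shNUDT21 and 236 ± 3.73 CPM in SKM-1 control libraries (SD, n = 3 each), ATIC, which takes up the other formyl group, at 285 ± 5.66 and 158 ± 2.34 CPM, and IMPDH1, of guanine nucleotide synthesis, at 148 ± 3.91 and 76.2 ± 0.738 CPM. In MUTZ-1, 0 of the 12 rose and 7 fell (median -0.11), beside 24.4% of all genes higher and 24.6% lower, with ADSL at 151 ± 0.886 and 192 ± 8.64 CPM, ATIC at 227 and 273 CPM and PAICS at 782 and 952 CPM, shNUDT21 before control. Among folate carriers and retention enzymes, 3 of 7 rose and 2 fell in SKM-1 (median -0.074). The reduced folate carrier gene SLC19A1 was at 113 ± 0.794 and 47.9 ± 1.83 CPM and SLC25A32, the mitochondrial folate carrier gene, at 51.1 ± 2.30 and 23.6 ± 0.305 CPM in SKM-1 shNUDT21 and control libraries, and SLC46A1, the proton-coupled carrier gene, was at 11.2 and 27.8 CPM. In MUTZ-1, 0 of the 7 rose and 3 fell (median -0.25), with SLC19A1 at 50.9 ± 2.45 and 70.7 ± 2.44 CPM, SLC25A32 at 62.0 ± 2.42 and 90.1 ± 1.27 CPM, and FPGS, which attaches glutamates to folate, at 83.5 and 99.1 CPM.

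In the folate cycle beyond the 9 genes, 3 of 9 rose and 2 fell in SKM-1 (median 0.091), with TYMS, the thymidylate synthase gene, at 294 ± 10.3 and 161 ± 1.94 CPM, and MTHFD2L, a relative of MTHFD2, at 13.6 ± 0.317 and 20.3 ± 1.31 CPM, shNUDT21 before control. In MUTZ-1, 1 rose and 3 fell (median -0.041), with MTFMT, which formylates the mitochondrial initiator tRNA, at 18.3 and 21.3 CPM. In the methionine cycle list, 3 of 7 rose and 4 fell in SKM-1 (median -0.13), with MTRR at 66.4 and 38.0 CPM. The falls in SKM-1 included AHCYL1 (169 and 241 CPM) and AHCYL2 (26.4 and 37.6 CPM). Both are in the list as relatives of AHCY, and whether they act in the cycle was not tested. In MUTZ-1, 1 rose and 5 fell (median -0.13), with MTRR at 58.2 and 77.5 CPM. MAT2A, which makes S-adenosylmethionine, was at 573 and 691 CPM in MUTZ-1, and AHCYL1, the gene that rose, at 159 and 132 CPM. MTRR, AHCYL1, SLC19A1 and SLC25A32 thus moved in opposite directions in the lines. In the glycine cleavage list, 3 of 6 rose and 2 fell in SKM-1 (median 0.24), including the lipoate genes LIAS (28.6 and 20.4 CPM) and LIPT1 (7.37 and 5.51 CPM) among the rises. In MUTZ-1, 0 rose and 2 fell (median -0.12), GCSH (51.8 and 56.5 CPM) and DLD (200.2 and 217 CPM).

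Transporters of serine and glycine were split, 5 of 10 up and 5 down in SKM-1 (median -0.023). SLC38A5, a glutamine, serine and glycine transporter gene known from red cell precursors, was at 216 ± 2.79 CPM in SKM-1 shNUDT21 and 35.7 ± 1.72 CPM in SKM-1 control libraries (log2 difference 2.60 ± 0.04, adjusted p = 2.84e-137, edgeR), beside the rise of the erythroid markers above. SFXN3, of the family of mitochondrial serine carriers, was at 4.23 ± 0.846 and 14.5 ± 0.799 CPM, and the glycine transporter gene SLC6A9 at 6.85 and 10.8 CPM. In MUTZ-1, 2 rose and 4 fell (median -0.082), with SLC38A5 at 62.4 ± 2.39 and 87.3 ± 1.12 CPM, SFXN3 at 20.9 ± 2.59 and 9.32 ± 0.778 CPM and SFXN2 at 32.7 and 41.8 CPM, shNUDT21 before control. Of the genes that use serine for lipids or convert it, 4 of 11 rose and 5 fell in SKM-1 (median -0.18), with SERINC5 at 19.9 and 68.3 CPM, PTDSS1, of phosphatidylserine synthesis, at 200.5 and 122 CPM, and SPTLC2, of sphingoid base synthesis, at 51.3 and 73.4 CPM. SPTLC3, also of sphingoid base synthesis and named after its values were seen, had the most negative difference of the list (0.944 and 17.6 CPM, log2 difference -4.21). In MUTZ-1, 5 rose and 5 fell (median -0.12), with SPTLC2 at 56.3 and 72.9 CPM, SERINC2 at 26.2 and 31.7 CPM and the serine racemase gene SRR at 10.6 and 7.95 CPM.

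Among transsulfuration and glutathione genes, 3 of 7 rose and 4 fell in SKM-1 (median -0.48). SLC7A11, the cystine importer gene, was at 20.8 ± 0.555 CPM in SKM-1 shNUDT21 and 106 ± 2.18 CPM in SKM-1 control libraries, GSS, the glutathione synthetase gene, at 123 ± 3.55 and 275 ± 6.94 CPM, and CTH, which makes cysteine from cystathionine, at 10.8 and 23.5 CPM. In MUTZ-1, 2 rose and 2 fell (median -0.045), with GSS at 78.1 and 59.3 CPM, CTH at 7.38 and 4.90 CPM and GCLM at 26.8 and 32.0 CPM. Of 4 genes for the supply, removal or bypass of 3-phosphoglycerate, the substrate of PHGDH, 3 fell in each line and 1 rose (medians -0.19 in SKM-1 and -0.11 in MUTZ-1). PGK1, which forms 3-phosphoglycerate, was at 472 ± 7.79 and 1179.8 ± 16.3 CPM in SKM-1 and 561 ± 3.40 and 627 ± 6.65 CPM in MUTZ-1, PGAM1, which consumes it, at 209 and 239 CPM in SKM-1 and 252 and 313 CPM in MUTZ-1, and BPGM, of the red cell side branch, at 25.6 and 18.1 CPM in SKM-1 and 33.5 and 25.7 CPM in MUTZ-1.

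ATF4 is the transcription factor best known for switching on the serine synthesis genes under amino acid shortage. Of the 15 genes in the list of ATF4 and its amino acid targets, 14 fell and 1 rose in SKM-1 (median -0.79, with 42.3% of all genes lower). VLDLR was at 0.640 ± 0.408 CPM in SKM-1 shNUDT21 and 9.23 ± 0.247 CPM in SKM-1 control libraries, CHAC1, a glutathione-degrading enzyme, at 2.47 ± 0.608 and 16.7 ± 2.30 CPM, and ATF3 at 6.22 ± 0.831 and 23.8 ± 1.65 CPM. ATF4 itself was at 351 ± 8.43 and 509 ± 3.03 CPM and ASNS, the asparagine synthetase gene, at 132 ± 2.99 and 222 ± 4.36 CPM in SKM-1 shNUDT21 and control libraries. TRIB3 was the member that rose (70.5 ± 0.605 and 60.8 ± 0.342 CPM). In MUTZ-1, 7 of the 15 rose and 5 fell (median 0.017), with VLDLR at 45.9 ± 2.40 and 25.1 ± 0.635 CPM, DDIT4 at 40.2 and 28.7 CPM, CHAC1 at 26.4 and 19.8 CPM and ASNS at 382 ± 5.57 and 305 ± 9.49 CPM, shNUDT21 before control, and ATF4 at 629.6 ± 5.13 and 697 ± 10.3 CPM. AMT, ATF4, ASNS and TRIB3 were named after their values were seen.

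Of 8 further regulators tied to the serine genes, 3 rose and 5 fell in SKM-1 (median -0.60). MYC was at 465 ± 6.04 CPM in SKM-1 shNUDT21 and 2139.7 ± 43.0 CPM in SKM-1 control libraries and MYCN at 0.532 ± 0.0911 and 20.3 ± 0.585 CPM. In MUTZ-1, 2 rose and 3 fell (median 0.02), with EHMT2 at 117 and 129 CPM and NFE2L2 at 79.2 and 87.3 CPM, and MYC was at 417 ± 6.78 and 401 ± 8.81 CPM with overlapping libraries (adjusted p = 0.0174, edgeR).

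**Figure D4:**
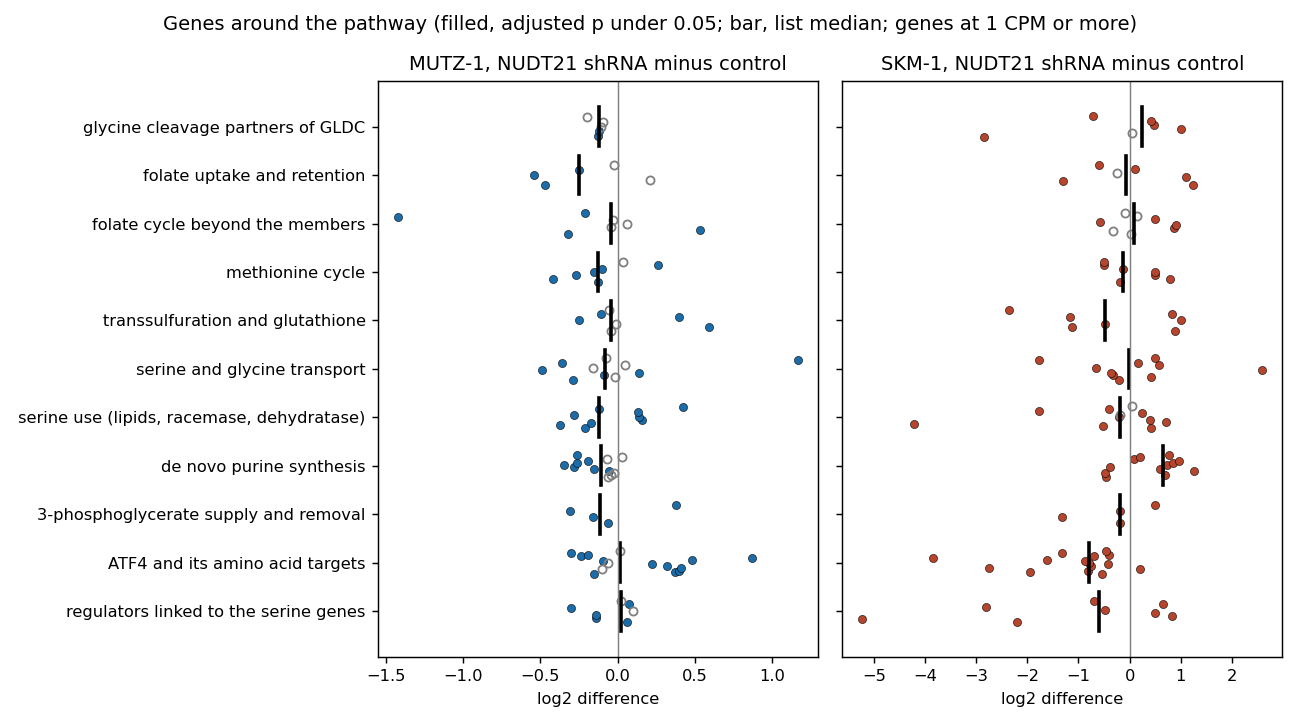
Log2 difference, shNUDT21 minus control (horizontal axes, with different ranges), of the tested genes of 11 lists (rows) in MUTZ-1 (left) and SKM-1 (right); each point is a gene with at least 1 CPM in 1 of the groups, filled at an adjusted p under 0.05 by edgeR, and the black bar is the list's median. The SKM-1 medians run from -0.79 (ATF4 and its amino acid targets) to 0.65 (purine synthesis).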

How the data were processed

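The deposited table held whole-number counts of reads per gene for 17518 genes in 12 libraries, and a second deposited table the FPKM of the same libraries. Per the submitters' processing notes, reads went through fastp, HISAT2 and HTSeq on GRCh38. For versions, annotation and strand setting, nothing is given in the sources used here. For 16377 genes FPKM equalled the count over the library total and 1 length per gene (largest relative spread 7.72e-07). Libraries, groups and replicate numbers came from the sample titles. With edgeR 4.0.16 in R 4.3.3, filterByExpr kept 13625 genes, counts were scaled by trimmed means of M values (TMM), and 1 quasi-likelihood fit with a mean per group gave all contrasts with 8 residual degrees of freedom. P-values were adjusted over all genes tested, and called means an adjusted p under 0.05. Levels are CPM after TMM scaling. The SE is the log2 difference over the square root of F, and 95% intervals are normal ones on the log2 scale. Replicates differed by more than sampling noise (chi-square per degree of freedom 1.66 to 2.25). Alternatives used library totals, RLE factors, DESeq2 1.42.0, other filters, limma 3.58.1 on log2 FPKM, a replicate block, the compared groups alone, and 11 libraries at a time. The 9 genes and all lists were chosen with earlier results of these data known. From each list and line the text names up to 3 called genes with the largest differences, a mean of at least 5 CPM over the 12 libraries and groups that do not overlap; some genes under this rule are not reported here. Gene positions are from RefSeq (GRCh38.p14).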

Additional observations from a re-analysis of the deposited data

Results flagged for a closer look

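The interaction term of the edgeR fit called a difference in knockdown effect between the lines for 8 genes, and 7 of them are listed here for that reason. On the log2 scale, MUTZ-1 minus SKM-1, the difference was 1.69 for PSAT1, 1.14 for MTHFD2, 0.99 for SHMT2, 0.65 for PSPH, 0.62 for SHMT1, -0.87 for MTHFD1 and -0.76 for MTHFD1L, beside 72.0% of all genes called in the same contrast. PHGDH was chosen for this difference and is not listed, and GLDC, called as well, is left out because it had 2 counts in all of MUTZ-1.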

How the results depend on the processing

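The 168 SKM-1 values of the 8 genes beside PHGDH, and the 140 differences between the lines' effects of those but GLDC, kept direction and call in each alternative run. In MUTZ-1, 115 of 147 values did. With limma on log2(FPKM + 1) and log2(FPKM + 0.1), 2 genes were higher and 1 lower in MUTZ-1, 27 list genes were lower there, and 1 gene was higher between control lines, as with library totals alone. In SKM-1, log2(FPKM + 1) gave -3.65 for PHGDH, -3.49 for GLDC and -1.03 for the median of the neighbours of PHGDH. Its pseudocount understates changes of low genes. Leaving out single libraries gave 1 to 3 genes lower in MUTZ-1, with 1 in the case of shNUDT21 replicate 3. Uncalled values changed sign in MUTZ-1. PSPH was 0.034 with library totals, 0.0085 with RLE factors, 0.0084 with DESeq2, 0.033 and 0.034 with FPKM, and -0.017 to 0.045 without single libraries. SHMT2 was 0.0026 with library totals and with both FPKM fits, and -0.045 to 0.00016 without single libraries. The replicate numbers did not pair the libraries (correlations of same-numbered deviations -0.0709 to 0.0229), and with a replicate block the 8 genes gave the same calls, with 2 higher and 6 lower in SKM-1 and 1 higher and 3 lower in MUTZ-1. The cause of these changes was not tested. In MUTZ-1, GLDC had 2 counts over the shNUDT21 libraries and 0 over the control libraries, so no size is given for it.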
